A study of Arabidopsis thaliana with 21 samples.

Results

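The xyloglucan endotransglucosylase/hydrolase (XTH) genes described here are 10 genes of Arabidopsis thaliana, XTH4 (AT2G06850), XTH5 (AT5G13870), XTH9 (AT4G03210), XTH14 (AT4G25820), XTH17 (AT1G65310), XTH18 (AT4G30280), XTH19 (AT4G30290), XTH20 (AT5G48070), XTH22 (AT5G57560) and XTH24 (AT4G30270). They were picked out by these identifiers from the 32833 genes of the deposited count table, which lists 33 XTH genes in all, and the choice was made with earlier results of these data known. The data are RNA-seq libraries of roots that were taken at 0 h, before any treatment, or after 6, 12 or 24 h of a mock treatment or of treatment with AtCEP5, a small secreted peptide of the C-TERMINALLY ENCODED PEPTIDE family. The study asks how this peptide family acts on root growth and on auxin and cytokinin signalling. There were 7 groups with 3 libraries per group and 21 libraries in total. All groups were labelled as roots, and the labels used here name no genotype, plant age, peptide dose or growth condition. The labels do not state whether the 3 libraries of a group came from separate cultures, and each p-value therefore refers to the spread among the libraries at hand, which may be technical.

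Xyloglucan is a hemicellulose that binds cellulose microfibrils in the primary cell wall. XTH enzymes cut a xyloglucan backbone and join the new end either to another xyloglucan chain or, in the hydrolase reaction, to water, and so rework the wall while cells grow. Xyloglucan is made in the Golgi by CSLC glucan synthases and XXT xylosyltransferases and by galactosyltransferases such as MUR3 and XLT2, and expansins loosen the wall beside the XTH enzymes without cutting it.

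The enzymes share a short active-site stretch in which the first of a pair of glutamates is the nucleophile and the other is the acid and base of catalysis. It is shown for all 10 genes because it is the feature that makes them 1 enzyme family. The lines are coding strand, 5′ to 3′, from the TAIR10.1 reference with RefSeq annotation, and capitals mark the codons of both glutamates.
XTH4, chr2:2764493-2764519, plus strand, exon 3: gacGAGatagactttGAGttccttgga
XTH5, chr5:4475714-4475740, minus strand, exon 3: gatGAGatagactttGAGtttctaggg
XTH9, chr4:1416538-1416564, plus strand, exon 3: aacGAAttcgattttGAGttcttaggg
XTH14, chr4:13130780-13130806, plus strand, exon 2: gatGAGattgacttcGAGtttttggga
XTH17, chr1:24257682-24257708, plus strand, exon 2: gatGAGatcgatttcGAGttcttggga
XTH18, chr4:14826569-14826595, minus strand, exon 2: gatGAGattgatttcGAGttcttagga
XTH19, chr4:14829561-14829587, minus strand, exon 2: gatGAGattgatttcGAGtttttgggg
XTH20, chr5:19482565-19482591, plus strand, exon 2: gatGAAatagattttGAGttcttggga
XTH22, chr5:23307839-23307865, minus strand, exon 2: gacGAGatagatttcGAGtttttaggg
XTH24, chr4:14820042-14820068, minus strand, exon 2: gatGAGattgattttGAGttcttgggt
The stretch was searched with a pattern that itself requires both glutamates, and every one of the 10 genes held a match. Over these 27 bases the other 9 genes differed from XTH19 at 2 to 8 positions, with XTH14 the closest and XTH4 and XTH9 the farthest.

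Over the whole coding sequence, XTH17, XTH18, XTH19 and XTH20 formed a close group. XTH17 and XTH18 were 92.2% identical, XTH18 and XTH19 89.0%, XTH17 and XTH19 88.4%, and XTH20 was 84.1 to 85.6% identical to the other 3. XTH18 and XTH19 lie next to each other on the minus strand of chromosome 4, at chr4:14825757-14827211 and chr4:14828712-14830224, and XTH24 lies near them at chr4:14819192-14820595. XTH17 is on chromosome 1, at chr1:24257054-24258506. The exons of XTH18 and XTH19 share an identical stretch of 68 bases, and those of XTH17 and XTH19 1 of 51 bases. Of all 50-base windows in the exons, 0.167% of XTH17, 1.57% of XTH18 and 1.63% of XTH19 also occur in another XTH gene, and of 100-base windows 0%. These are exact matches, so reads aligned with mismatches are not covered. The part of shared reads in these counts was not tested. None of the 10 genes overlaps another annotated gene.

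The libraries held 10334319 to 14345476 counts. The share of ribosomal RNA was 0.270 to 0.601% except for 2 libraries, replicate 2 of mock 6 h (2.196%) and replicate 3 of AtCEP5 12 h (1.96%). Mock 24 h replicate 1 had the highest level of its group for XTH4, XTH9, XTH14, XTH17, XTH18 and XTH19, and larger moves without it are given beside the results at 24 h. The labels give the cell type as root meristem cell. Meristem markers were present, with PLT1, PLT2, WOX5, SCR, SHR and CYCB1;1 summing to 39.5 to 59.0 FPKM over the 21 libraries. Markers of differentiated cells were present too, with 6 root hair genes at 137 to 350 FPKM and 3 endodermis genes at 90.3 to 183 FPKM. The libraries therefore hold more than meristem, and these sums do not give the share of each cell type. In such bulk RNA, fewer cells of a type and less RNA per cell cannot be told apart.

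Levels between genes are compared in FPKM, which corrects for transcript length. XTH14 had the highest mean level of the 10 genes in every group, from 71.6 FPKM in AtCEP5 12 h to 152 FPKM in mock 24 h. Before treatment it was followed by XTH18 (95.5 FPKM), XTH17 (85.4), XTH4 (74.8), XTH19 (68.1), XTH24 (54.3) and XTH22 (43.0), and neighbours from XTH18 to XTH22 in that order overlapped in their libraries. XTH5 (17.7 FPKM), XTH9 (12.5) and XTH20 (9.17) came last, each below the gene before it in all 3 libraries. In all 6 groups after treatment XTH22 was the lowest, with a mean as low as 4.25 FPKM in mock 12 h, and in mock 6 h and mock 24 h its libraries overlapped those of XTH24. The 10 genes together made up 24.1 to 52.9% of the summed FPKM of all 33 XTH genes, with a median of 28.3%. XTH31, which is not among them, stood at 96.6 to 130 FPKM before treatment, 16.8 to 25.1% of the other 23 genes, and at 892 to 916 FPKM in mock 6 h, 69.3 to 70.6% of them. Its share was 59.5 to 68.4% at the later mock times and 47.5 to 67.9% with AtCEP5.

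**Figure D1:**
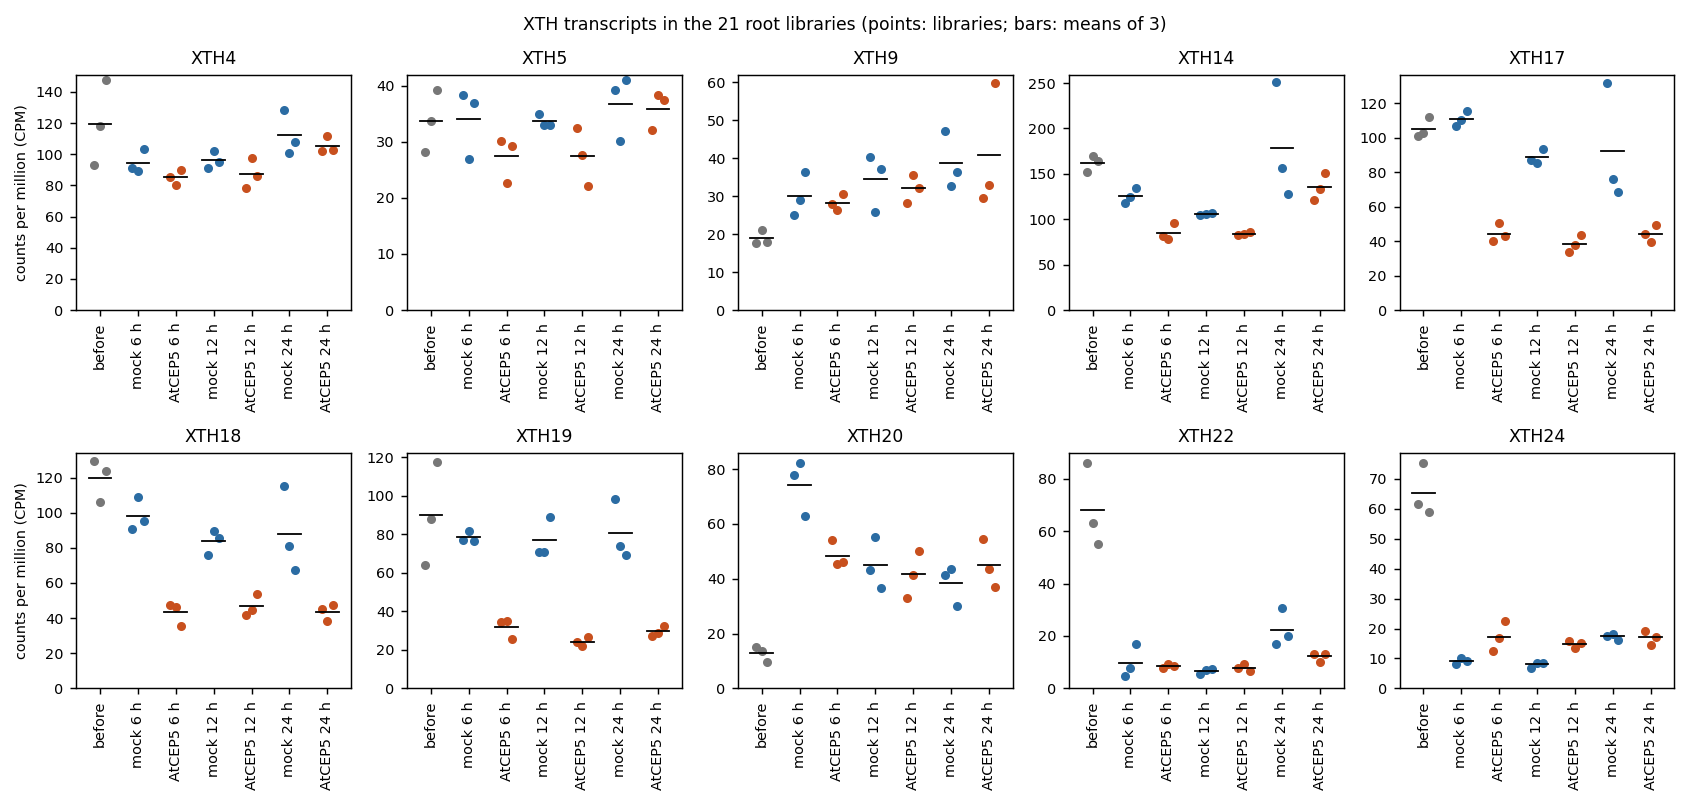
Normalised read count (CPM, linear axis from 0, own scale in each panel) of the 10 XTH genes. Each point is a library (grey before treatment, blue mock, orange AtCEP5) and each bar the mean of 3. XTH17, XTH18 and XTH19 have every AtCEP5 point below every mock point, and XTH22 and XTH24 have every treated point below every point from before treatment.

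The first question was how AtCEP5 roots differed from mock roots at the same time. XTH17, XTH18 and XTH19 were lower with AtCEP5 at 6, 12 and 24 h, by 1.80 to 3.18 times. XTH24 was higher at 6 and 12 h, by 1.88 and 1.85 times, and XTH14 and XTH20 were lower at 6 h only among the single times. XTH4, XTH5, XTH9 and XTH22 passed at no time. A gene is called higher or lower, or said to have risen or fallen, at an adjusted p under 0.05 in edgeR's quasi-likelihood test over the 19938 genes that passed a filter on low counts, all 10 among them. At 6 h 1 of the 10 genes was higher and 5 were lower, where 5.94% of all genes tested were higher and 5.33% lower. At 12 h 1 was higher and 3 lower, against 6.71% and 5.41% of all genes. At 24 h 3 were lower, against 4.12% of all genes, and 0 higher, against 3.7%, with 0 higher also at an unadjusted p under 0.05, in DESeq2 and in limma. Averaged over the 3 times 1 was higher and 4 were lower, against 14.8% and 15.5%. The median log2 fold change of the 10 genes was −0.44, −0.22 and −0.25 at 6, 12 and 24 h, beside 0.01, −0.02 and 0.00 for all genes tested.

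XTH19 had the largest fall of the 10 in the average over times. This gene is known from cut Arabidopsis stems, where it takes part in the reunion of tissue. In mock roots its normalised read count (CPM, counts scaled to library size) was 77.3, 81.8 and 76.6 at 6 h, 70.8, 70.6 and 89.2 at 12 h, and 98.5, 73.8 and 69.3 at 24 h. In AtCEP5 roots it was 34.5, 35.2 and 25.7 at 6 h, 23.9, 21.9 and 26.9 at 12 h, and 27.4, 28.8 and 32.4 at 24 h. The highest AtCEP5 library, at 35.2 CPM, lay below the lowest mock library, at 69.3 CPM. In log2 the difference was −1.31 ± 0.18 (SE; edgeR adjusted p = 5.42e-05) at 6 h, −1.67 ± 0.19 (2.96e-06) at 12 h and −1.45 ± 0.18 (2.29e-05) at 24 h. The average was −1.47 ± 0.11 (adjusted p = 8.29e-10), the 142nd lowest of the 19938 genes tested.

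XTH17 and XTH18, which like XTH19 are known from the elongating part of the root, were also lower at each time. XTH17 was at 107, 111 and 116 CPM in mock 6 h, 87.1, 85.4 and 93.5 CPM in mock 12 h, and 132, 76.1 and 68.3 CPM in mock 24 h. With AtCEP5 it was at 40.0, 50.3 and 42.9 CPM at 6 h, 33.7, 37.9 and 43.6 CPM at 12 h, and 44.2, 39.4 and 49.4 CPM at 24 h. All 9 AtCEP5 libraries lay below all 9 mock libraries. The log2 fold changes were −1.32 ± 0.18, −1.21 ± 0.18 and −1.05 ± 0.18, with edgeR adjusted p of 3.23e-05, 6.07e-05 and 4.28e-04, and the average was −1.19 ± 0.10 (8.30e-09). Without mock 24 h replicate 1 the difference at 24 h was −0.70, which passed at an adjusted p of 0.00234.

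XTH18 was at 90.7, 109 and 95.4 CPM in mock 6 h, 76.0, 89.9 and 85.6 CPM in mock 12 h, and 115, 81.2 and 67.5 CPM in mock 24 h. With AtCEP5 it was at 47.4, 46.6 and 35.7 CPM at 6 h, 41.9, 44.6 and 53.6 CPM at 12 h, and 45.2, 38.3 and 47.6 CPM at 24 h. Here too all 9 AtCEP5 libraries lay below all 9 mock libraries. XTH18 fell by 1.19 ± 0.17 at 6 h, 0.84 ± 0.17 at 12 h and 1.01 ± 0.17 at 24 h on the log2 scale, with edgeR adjusted p of 5.50e-05, 0.00131 and 3.75e-04. The average over times was −1.01 ± 0.10 (adjusted p = 3.74e-08), and the value at 24 h without mock 24 h replicate 1 was −0.77 (0.00369). These 3 genes kept their calls at every time under each alternative run, the removal of each library included.

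XTH20, the fourth of the close group, is expressed in the root vasculature and did not follow the other 3. Its CPM was 77.8, 82.3 and 62.8 in mock 6 h and 54.1, 45.3 and 46.0 in AtCEP5 6 h, with no overlap. The log2 fold change at 6 h was −0.62 ± 0.19 (edgeR adjusted p = 0.0417), and this call was lost without any 1 of 5 of the 6 libraries, with an adjusted p of up to 0.148. At 12 and 24 h the groups overlapped, with log2 fold changes of −0.12 ± 0.19 (adjusted p = 0.755) and 0.23 ± 0.20 (0.590).

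**Figure D2:**
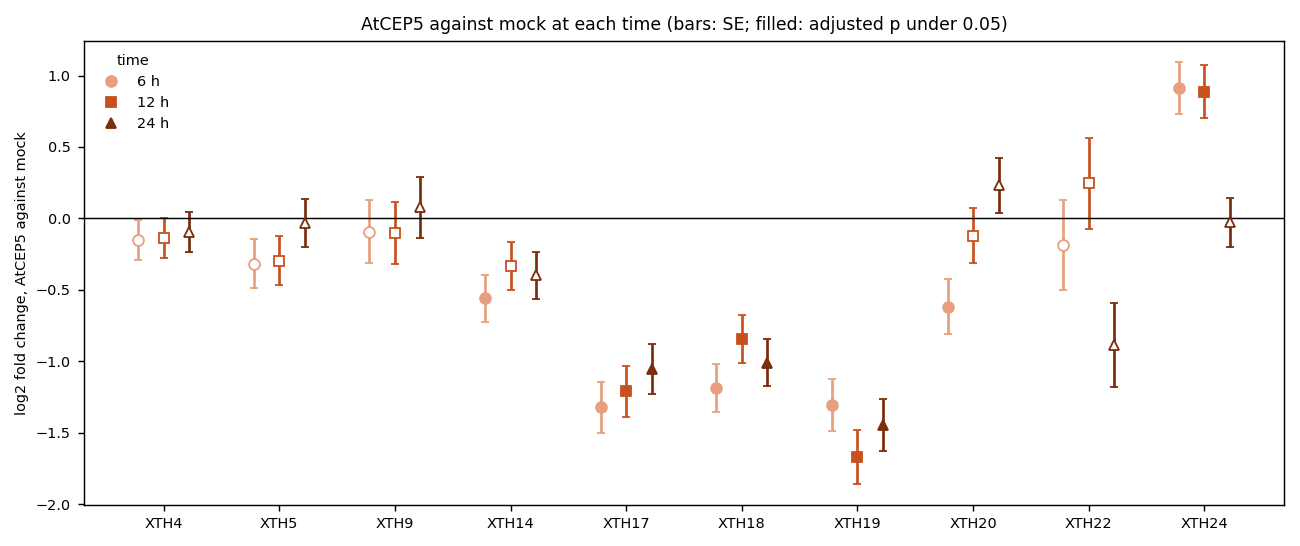
log2 fold change of AtCEP5 against mock (vertical axis) for the 10 XTH genes at 6 h (circles), 12 h (squares) and 24 h (triangles), with standard errors. Filled symbols passed an adjusted p under 0.05. XTH17, XTH18 and XTH19 are filled and below −0.8 at all 3 times, while XTH24 is near 0.9 at 6 and 12 h and at −0.03 at 24 h.

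XTH14 is known for its activity in the root hair zone. Its CPM was 118, 124 and 134 in mock 6 h and 81.1, 78.0 and 96.0 in AtCEP5 6 h. At 12 h it was 105, 106 and 107 in mock and 82.5, 84.1 and 85.5 in AtCEP5, and at 24 h 251, 156 and 128 in mock and 121, 134 and 151 in AtCEP5. The groups were apart at 6 and 12 h and overlapped at 24 h. The log2 fold change was −0.56 ± 0.17 (edgeR adjusted p = 0.0313) at 6 h, −0.33 ± 0.17 (0.217) at 12 h and −0.40 ± 0.17 (0.165) at 24 h, and the average of −0.43 ± 0.10 passed (0.00145). The call at 6 h was lost without any 1 of 5 of the 6 libraries, with an adjusted p of up to 0.155, while the average over times passed without each library in turn. At 24 h the difference rested on single mock libraries. It was −0.07 ± 0.13 (0.823) without mock 24 h replicate 1, the library at 251 CPM, and −0.60 ± 0.15, which passed (0.0181), without replicate 3, the library at 128 CPM.

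Markers of root hair cells differed between the arms as well. Of the 6 root hair genes RHD6, EXPA7, EXPA18, COBL9, PRP3 and MRH6, 4 were lower with AtCEP5 at 6 h. At 12 h 2 were lower, at 24 h 1, and in the average 5. Of all genes tested 5.33%, 5.41% and 4.12% were lower at these times and 15.5% in the average. None of the 6 was higher, also at an unadjusted p under 0.05, where 5.94%, 6.71%, 3.7% and 14.8% of all genes were called higher. Their summed level was 137 to 196 FPKM in the 9 AtCEP5 libraries and 207 to 350 FPKM in the 9 mock libraries, and none of the 6 was at 0. With each library left out in turn, 1 to 4, 1 to 3 and 0 to 3 were lower at 6, 12 and 24 h and 5 in the average. The part of root hair cells in the falls of the XTH genes was not tested. Single markers of other cells were called too, some of them higher. Of all genes tested 6.71% were higher at 12 h and 3.7% at 24 h. In the average 14.8% were higher and 15.5% lower. Single calls in lists this short cannot be told from those shares. Of the 3 endodermis markers MYB36 was higher at 12 h (0.75 ± 0.20, edgeR adjusted p = 0.0141) and in the average (0.43 ± 0.11, 0.00616), with a summed level of 95.9 to 118 FPKM with AtCEP5 and 90.3 to 140 FPKM in mock. Of the 6 shoot markers tested GAPA was higher at 12 h (0.76 ± 0.22, 0.0213) and in the average (0.44 ± 0.12, 0.00980), and the median of the 6 was 0.89 at 12 h and 0.41 in the average. Of the 6 meristem markers WOX5 was higher in the average (0.42 ± 0.14, 0.0246) and at 24 h (0.82 ± 0.24, 0.0372), and CYCB1;1 was lower in the average (−0.34 ± 0.11, 0.0244). The meristem markers summed to 43.1 to 53.0 FPKM with AtCEP5 and 39.5 to 59.0 FPKM in mock. Of the 7 xylem markers 0 passed in the average (0 also at an unadjusted p under 0.05). The part of these cells in the changes of the XTH genes was not tested either.

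XTH24 went the other way from the group of 3, although it is their neighbour on chromosome 4. It is also called MERI5B, after its isolation from meristems. Its CPM was 8.27, 10.2 and 9.07 in mock 6 h and 12.4, 16.9 and 22.4 in AtCEP5 6 h, and 6.91, 8.65 and 8.39 in mock 12 h and 16.0, 13.4 and 15.1 in AtCEP5 12 h. At both times the AtCEP5 libraries lay above the mock libraries, by 0.91 ± 0.18 (edgeR adjusted p = 0.00178) and 0.89 ± 0.18 (0.00191) in log2. At 24 h the level was 17.7, 18.1 and 16.3 CPM in mock and 19.3, 14.5 and 17.3 CPM in AtCEP5, and the difference was −0.03 ± 0.17 (0.966). The effect at 24 h was smaller than at 6 h by 0.94 ± 0.25 in log2, which did not pass over all genes (adjusted p = 0.575). The average over times was 0.59 ± 0.10 (1.28e-04).

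XTH22 is TCH4, the touch-inducible XTH of Arabidopsis. Its CPM at 6 h was 4.59, 7.70 and 16.8 in mock and 7.73, 9.13 and 8.67 in AtCEP5, and at 12 h 5.67, 6.95 and 7.55 in mock and 7.72, 9.33 and 6.81 in AtCEP5. At 24 h it was 16.8, 30.5 and 20.0 in mock and 13.2, 10.1 and 13.2 in AtCEP5. The groups overlapped at 6 and 12 h and were apart at 24 h, where the log2 difference was −0.88 ± 0.29 (edgeR adjusted p = 0.0706). That difference passed with DESeq2 (0.0478) and with no filter on low counts (0.0417), and its adjusted p over all alternatives run was 0.0417 to 0.324. Of the other touch-inducible genes, the calmodulin-like CML24 was lower in the average over times (−0.73 ± 0.16, 0.00137) and CML12 higher (0.69 ± 0.14, 7.31e-04).

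The other 3 genes passed the test at no time and not in the average. XTH4, which acts in stems during secondary growth, was at 89.0 to 129 CPM in the 9 mock libraries and 78.4 to 111 CPM in the 9 AtCEP5 libraries, with an average difference of −0.13 ± 0.08 in log2 (edgeR adjusted p = 0.256). XTH5 was at 26.8 to 41.0 and 22.2 to 38.3 CPM, with −0.21 ± 0.10 (0.103). XTH9, which acts with XTH4 in stems, was at 25.1 to 47.1 and 26.4 to 59.9 CPM, with −0.04 ± 0.13 (0.850). Mock and AtCEP5 libraries of these 3 genes overlapped at every time except for XTH5 at 12 h, where all AtCEP5 libraries lay below the mock libraries (adjusted p = 0.296). No effect of AtCEP5 differed between 2 times among the 10 genes in edgeR. For 12 against 6 h and 24 against 12 h 0 and 2 of the 10 had an unadjusted p under 0.05, and for 24 against 6 h 2, which were XTH20 (0.85 ± 0.27) and XTH24. Over all genes 0.00502% and 0% were called higher and lower at 12 against 6 h, 0% and 0.015% at 24 against 12 h, and 0.00502% in each direction at 24 against 6 h.

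The second question was how the genes moved after the libraries of 0 h. Mock roots changed too, so the comparison with them does not give the change since treatment began. XTH22 and XTH24 fell steeply in both arms, XTH20 rose in both and XTH9 rose in mock roots at all 3 times, while XTH17 and XTH19 fell in AtCEP5 roots and did not pass in mock roots. Both sets of comparisons share the 3 libraries from before treatment.

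In mock roots 2 genes were higher and 2 lower at 6 h, where 18.2% and 20.5% of all genes tested were. At 12 h 2 were higher and 4 lower, against 17.7% and 19.7%, and at 24 h 2 and 3, against 16.6% and 18.5%. In AtCEP5 roots 1 was higher and 7 were lower at 6 h, against 13.1% and 14.6%. At 12 h 2 were higher and 7 lower, against 10.5% and 13.2%, and at 24 h 2 and 5, against 12.8% and 15.2%.

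**Figure D3:**
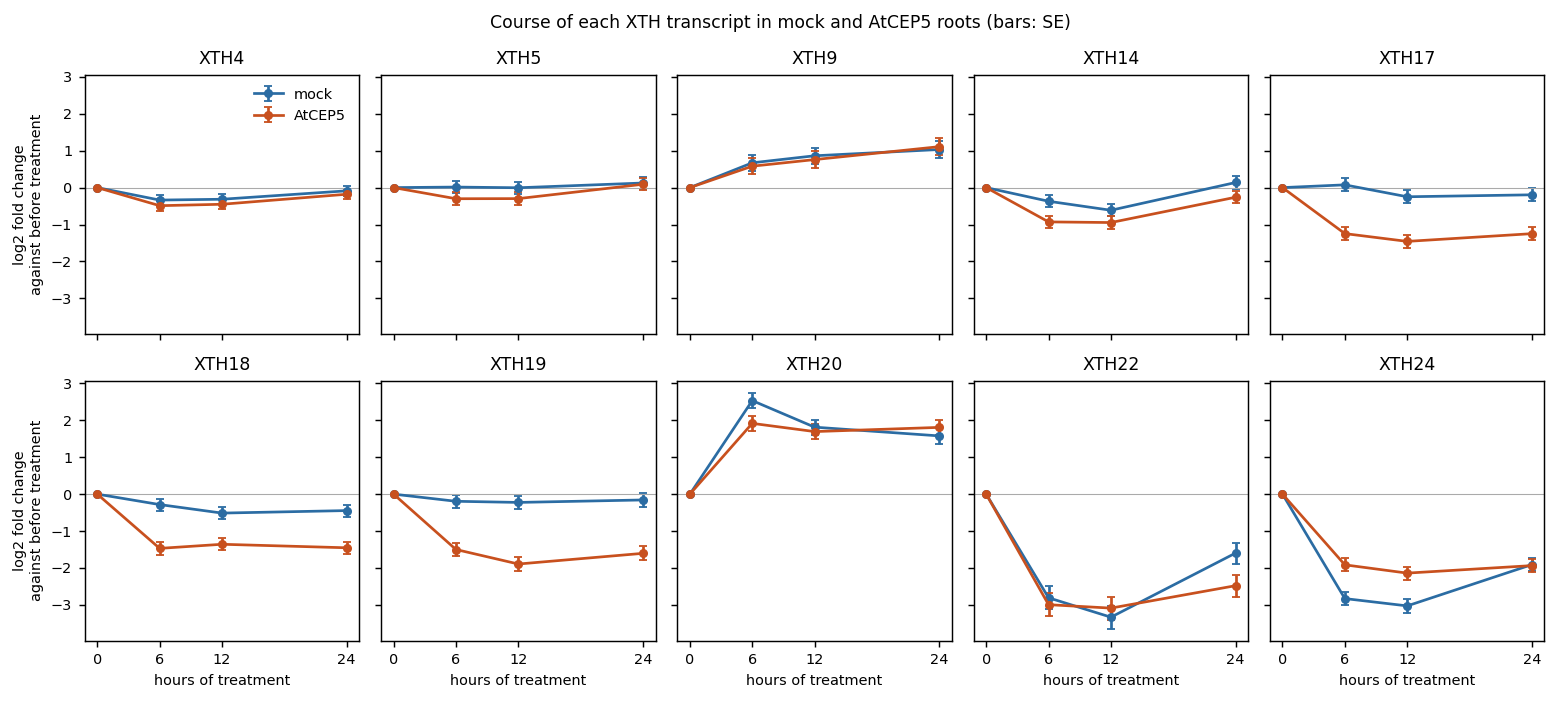
log2 fold change against the libraries from before treatment (vertical axis) over hours of treatment (horizontal axis) for each XTH gene, mock in blue and AtCEP5 in orange, with standard errors from edgeR. XTH22 and XTH24 drop by 1.6 to 3.3 in both arms, XTH20 rises in both, and the arms part for XTH17, XTH18 and XTH19.

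XTH17 was at 101, 103 and 112 CPM before treatment, inside or near the range of its mock libraries. Against that level mock roots differed by 0.07 ± 0.17, −0.25 ± 0.17 and −0.20 ± 0.17 in log2 at 6, 12 and 24 h, with edgeR adjusted p of 0.766, 0.273 and 0.403. Without mock 24 h replicate 1 the difference at 24 h was −0.54 and passed (0.00349). AtCEP5 roots fell by 1.25 ± 0.18, 1.46 ± 0.18 and 1.25 ± 0.18, with adjusted p of 1.79e-05, 3.36e-06 and 1.76e-05.

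XTH19 was at 63.9, 88.1 and 118 CPM before treatment. Mock roots differed from that level by −0.19 ± 0.18, −0.22 ± 0.18 and −0.16 ± 0.18 in log2 (edgeR adjusted p of 0.418, 0.338 and 0.522), and AtCEP5 roots fell by 1.50 ± 0.18, 1.89 ± 0.19 and 1.60 ± 0.19 (2.96e-06, 1.94e-07 and 1.41e-06). XTH18, at 129, 106 and 124 CPM before treatment, fell in AtCEP5 roots by 1.47 ± 0.17, 1.36 ± 0.17 and 1.45 ± 0.17 (adjusted p of 1.28e-06, 3.73e-06 and 1.41e-06). In mock roots it differed by −0.28 ± 0.16 at 6 h (0.181) and fell by 0.51 ± 0.16 at 12 h (0.0169) and 0.45 ± 0.16 at 24 h (0.0381). These last calls of XTH18 were lost without before-treatment replicate 1 (0.0573 and 0.124), and at 12 h without mock replicate 1 (0.0740). At 24 h the call was also lost without before-treatment replicate 3 (0.0900) or mock replicates 2 or 3 (0.133 and 0.209), and with only the compared groups in the fit (0.159). Without mock 24 h replicate 1 the fall at 24 h was larger, at −0.69 ± 0.16 (0.00180), and without replicate 3 the difference was −0.29 ± 0.17.

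XTH24 was at 61.6, 75.3 and 58.9 CPM before treatment and fell in mock roots by 2.83 ± 0.18, 3.03 ± 0.18 and 1.91 ± 0.17 in log2 (edgeR adjusted p of 3.16e-10, 2.34e-10 and 3.81e-08). In AtCEP5 roots it fell by 1.92 ± 0.17, 2.14 ± 0.17 and 1.94 ± 0.17 (6.19e-08, 1.58e-08 and 4.30e-08). From 12 to 24 h it rose again in mock roots, by 1.12 ± 0.18 (0.00196), and in AtCEP5 roots the same step was 0.20 ± 0.18 (0.809).

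XTH22 was at 85.8, 63.1 and 55.1 CPM before treatment. In log2 it fell by 2.81 ± 0.31, 3.33 ± 0.31 and 1.60 ± 0.28 in mock roots (edgeR adjusted p of 2.91e-07, 5.11e-08 and 1.67e-04). In AtCEP5 roots the log2 differences were −3.00, −3.09 and −2.48 (2.95e-07, 2.17e-07 and 2.31e-06), or 7.97, 8.50 and 5.58 times lower. Every treated library lay below every library from before treatment. From 12 to 24 h XTH22 rose by 1.74 ± 0.31 in mock roots (0.00432), and in AtCEP5 roots that step was 0.61 ± 0.31 (0.518). CML24 and CML12, both touch-inducible like XTH22, were also lower than before treatment in mock roots at all 3 times, with log2 differences of −0.91 to −1.54 and −1.70 to −2.87. The part of touch or handling in these falls was not tested.

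XTH20 had the largest rise of the 10 genes in mock roots, from 2.98 times at 24 h to 5.79 times at 6 h. It was at 15.2, 13.6 and 9.68 CPM before treatment and 77.8, 82.3 and 62.8 CPM in mock 6 h, then 43.3, 55.3 and 36.7 CPM at 12 h and 41.2, 43.7 and 29.9 CPM at 24 h. In AtCEP5 roots it was at 54.1, 45.3 and 46.0 CPM at 6 h, 33.1, 41.4 and 50.2 CPM at 12 h and 54.5, 43.5 and 36.8 CPM at 24 h. All 18 treated libraries lay above the 3 from before treatment. The log2 rise was 2.53 ± 0.21, 1.81 ± 0.21 and 1.58 ± 0.21 in mock roots (edgeR adjusted p of 8.19e-09, 7.02e-07 and 4.99e-06) and 1.92 ± 0.21, 1.69 ± 0.21 and 1.81 ± 0.21 in AtCEP5 roots (6.01e-07, 3.28e-06 and 1.30e-06).

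XTH9 stood at 17.6, 21.1 and 17.9 CPM before treatment, below all 18 treated libraries, which ranged from 25.1 to 59.9 CPM. It rose in mock roots by 0.67 ± 0.22, 0.86 ± 0.22 and 1.03 ± 0.22 in log2 (edgeR adjusted p of 0.0200, 0.00393 and 9.83e-04). In AtCEP5 roots it rose at 12 h by 0.76 ± 0.22 (0.0158) and at 24 h by 1.11 ± 0.22 (6.85e-04), and the difference at 6 h was 0.58 ± 0.22 (0.0552). The rise at 24 h was 0.71 ± 0.19 (0.00919) without AtCEP5 24 h replicate 3, which was at 59.9 CPM beside 29.5 and 33.0 CPM. The mock call at 6 h was lost without before-treatment replicates 1 or 3 or mock replicate 3 (0.0649, 0.0646 and 0.106), and the AtCEP5 call at 12 h without before-treatment replicates 1 or 3 or AtCEP5 replicate 2 (0.0506, 0.0543 and 0.0625).

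XTH14 was at 152, 170 and 164 CPM before treatment. It fell in mock roots at 12 h by 0.61 ± 0.17 in log2 (edgeR adjusted p = 0.00573), and in AtCEP5 roots by 0.93 ± 0.17 at 6 h (2.43e-04) and 0.95 ± 0.17 at 12 h (2.51e-04). It then rose from 12 to 24 h in both arms, by 0.75 ± 0.17 in mock (0.0270) and 0.69 ± 0.17 in AtCEP5 (0.0314). The falls kept their calls without each library in turn. The call of the rise from 12 to 24 h was lost without certain single libraries in both arms. In mock it was lost without any 1 library of 12 h (0.119 to 0.141) and without 24 h replicate 1, where the step was 0.43 ± 0.13 (0.153). In AtCEP5 it was lost without any 1 of 5 of the 6 libraries (0.103 to 0.194). For this step from 12 to 24 h, 3 of the 10 genes were higher in mock, where 0.652% of all genes were higher and 0.226% lower. In AtCEP5 1 was higher, where 0.777% of all genes were higher and 1.15% lower. From 6 to 12 h 0 of the 10 were called in either arm by edgeR, and 1 in each arm was lower at an unadjusted p under 0.05. Of all genes 0.246% were higher and 0.476% lower in mock over that step, and 0.316% and 0.356% in AtCEP5.

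XTH4 was at 92.9, 118 and 148 CPM before treatment and fell in AtCEP5 roots by 0.49 ± 0.14 at 6 h and 0.45 ± 0.14 at 12 h in log2 (edgeR adjusted p of 0.0117 and 0.0224). Both calls were lost without before-treatment replicate 3, the highest of the 3 libraries (−0.31, 0.117, and −0.26, 0.211), and with only the compared groups in the fit (0.0548 and 0.129). They were also lost without AtCEP5 6 h replicate 2 (0.0552), and without AtCEP5 12 h replicates 1 or 3 (0.0898 and 0.0760). In mock roots XTH4 did not pass at any time, and it did at 6 and 12 h without before-treatment replicate 1 (0.00789 and 0.0104, with −0.48 in place of −0.32 at 12 h). XTH5, at 28.2, 33.7 and 39.2 CPM before treatment, passed against that level in neither arm at any time.

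Markers of shoot tissue also differed from the libraries of 0 h. Summed over 7 genes they were at 260 to 1586 FPKM before treatment, with the highest value in replicate 3, 94.6 to 262 FPKM in mock and 129 to 321 FPKM with AtCEP5. Of the 6 that could be tested 4, 6 and 3 were lower in mock roots at 6, 12 and 24 h, and 2, 3 and 5 in AtCEP5 roots. Of all genes tested 20.5%, 19.7% and 18.5% were lower in mock roots at these times and 14.6%, 13.2% and 15.2% in AtCEP5 roots. The shares of genes called higher were 18.2%, 17.7% and 16.6% in mock and 13.1%, 10.5% and 12.8% in AtCEP5. The 3 endodermis markers summed to 139 to 183 FPKM before treatment, with the lowest mock and AtCEP5 libraries at 90.3 and 95.9 FPKM and the highest at 140 and 118 FPKM. CASP1 and MYB36, 2 of these 3, were lower in mock roots at all 3 times and in AtCEP5 roots at 6 and 24 h, and at 12 h CASP1 alone was. The meristem marker CYCB1;1 was higher in mock roots at all 3 times (0.73 to 0.91) and in AtCEP5 roots at 6 h (0.66), while PLT1 was lower in mock roots at 24 h and in AtCEP5 roots at 12 and 24 h, and PLT2 in AtCEP5 roots at 24 h. Of the 7 xylem markers 2 were lower at 12 h in both arms and at 24 h in mock. That list is too short to be told from the shares of all genes. Of the root hair markers 4, 3 and 2 were lower in AtCEP5 roots, and in mock roots 1 was higher at 6 h. The part of these markers' cells in the changes of the XTH genes since 0 h was not tested. XTH22, XTH24 and XTH20 kept their calls against 0 h without before-treatment replicate 3. That removal is no test of shoot tissue, because before-treatment replicates 1 and 2 still held 260 and 314 FPKM of its markers. The highest libraries of mock 6 h and mock 12 h held 161 and 140 FPKM.

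**Figure D4:**
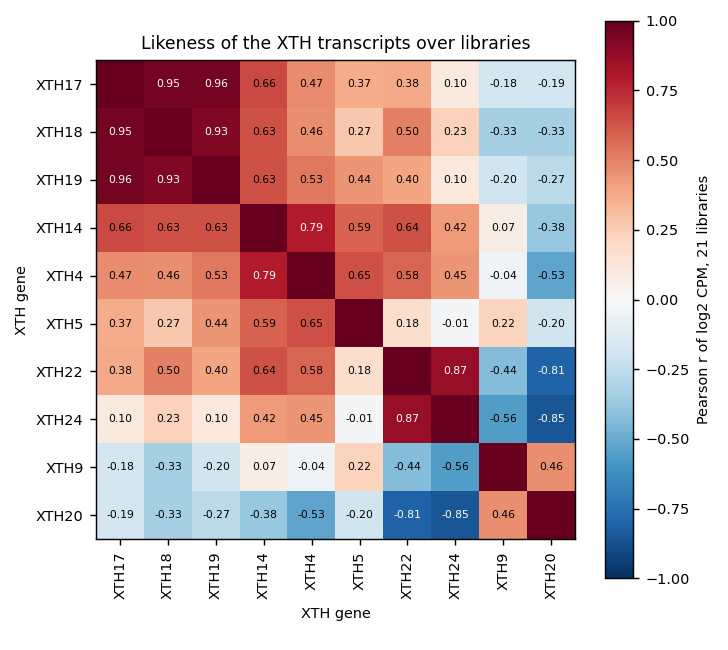
Pearson correlation of log2 CPM between each pair of the 10 XTH genes over the 21 libraries (colour scale from −1 to 1, values printed). XTH17, XTH18 and XTH19 form a block of 0.93 to 0.96, and XTH20 runs opposite to XTH22 and XTH24.

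Among themselves the 10 genes fell into a few patterns, given here as correlations of log2 CPM over the 21 libraries, which share the 7 groups. XTH17 and XTH19 had r = 0.956, XTH17 and XTH18 0.955, and XTH18 and XTH19 0.925. XTH22 and XTH24 had 0.869, and XTH20 had −0.811 with XTH22 and −0.852 with XTH24. For XTH20, XTH22 and XTH24 the libraries from before treatment lay apart from all treated libraries, and these r include both. XTH20, close to XTH17, XTH18 and XTH19 in coding sequence, had r of −0.19 to −0.33 with them. Of 8561 tested genes with a symbol outside the 10, the gene most like both XTH17 and XTH19 over the libraries was NLM1, a NIP aquaporin (r = 0.950 and 0.961). For XTH18 it was the cyclin CYCP4;2 (0.942), for XTH14 the arabinogalactan protein FLA6 (0.929), and for XTH20 the histone chaperone NRP2 (0.943). For XTH22 it was AR781 (0.965), for XTH24 the defence transcription factor WRKY33 (0.951), and for XTH4, XTH5 and XTH9 it was FPS1 (0.872), ROC1 (0.839) and ATP3 (0.886).

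Because XTH17, XTH18 and XTH19 moved together, the 250 bases before the annotated start of each gene are shown, 5′ to 3′ on the gene's strand, from TAIR10.1. Capitals mark the longest stretch that each shares with the promoter of another of the 10 genes.
XTH17, chr1:24256804-24257053, plus strand: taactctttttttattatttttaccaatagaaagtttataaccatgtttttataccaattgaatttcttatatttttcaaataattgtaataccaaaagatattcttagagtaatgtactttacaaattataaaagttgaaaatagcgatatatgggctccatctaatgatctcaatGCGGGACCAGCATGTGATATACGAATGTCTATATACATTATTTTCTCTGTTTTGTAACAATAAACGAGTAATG
XTH18, chr4:14827212-14827461, minus strand: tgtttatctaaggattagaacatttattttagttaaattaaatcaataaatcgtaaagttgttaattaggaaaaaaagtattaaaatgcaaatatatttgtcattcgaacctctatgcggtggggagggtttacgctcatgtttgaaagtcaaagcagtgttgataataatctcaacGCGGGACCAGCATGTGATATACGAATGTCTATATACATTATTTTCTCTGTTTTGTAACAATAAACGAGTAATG
XTH19, chr4:14830225-14830474, minus strand: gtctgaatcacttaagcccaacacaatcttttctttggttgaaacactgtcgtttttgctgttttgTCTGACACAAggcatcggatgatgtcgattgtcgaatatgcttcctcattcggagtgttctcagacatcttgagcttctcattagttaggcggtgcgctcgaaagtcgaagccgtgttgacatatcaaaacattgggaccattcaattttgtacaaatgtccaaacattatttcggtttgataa
XTH17 and XTH18 share the same 73 bases, from −73 to −1 before both starts, although they lie on different chromosomes. Only these 2 of 27443 protein-coding promoters of that length hold the stretch. The longest identical stretch in any of the other 44 pairs of the 10 promoters was 11 bases, and XTH19 shares at most 10 with another of them. The part of the shared stretch in the common course of XTH17 and XTH18 was not tested. The auxin response element TGTCTC, searched on both strands, was in 0 of the 10 promoters and in 10.9% of all promoters, and its variant TGTCGG was in that of XTH20 and in 4.16% of all. The G-box CACGTG (6.49% of all) was in 0 of the 10. So was CGTGNG with any base at N (12.5%), a loose form of a brassinosteroid-related element that can overlap the G-box. These counts describe 250 bases only.

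The last comparison set the 10 genes beside the rest of the family and beside other wall genes. Of the 23 other XTH genes 17 had enough reads to be tested. In the average over times 10 of these were lower with AtCEP5 and 1, XTH30, was higher (0.68 ± 0.10 in log2, edgeR adjusted p = 9.95e-06). Those lower were XTH13 (−1.86), XTH26 (−1.48), XTH12 (−1.30), XTH32 (−1.09), XTH21 (−1.06), XTH8 (−0.83), XTH31 (−0.76), XTH7 (−0.74), XTH16 (−0.72) and XTH33 (−0.71), and the median of the 17 was −0.72. At 6, 12 and 24 h 8, 9 and 9 of the 17 were lower and 1, 1 and 0 higher, the last with 1 at an unadjusted p under 0.05. Of all genes tested 5.33%, 5.41% and 4.12% were lower at these times and 5.94%, 6.71% and 3.7% higher. In the average over times these shares were 15.5% and 14.8%. With each library left out in turn, 6 to 8, 6 to 9 and 6 to 9 were lower at these times and 10 in the average.

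XTH13, with the largest fall of the family, is close to XTH14 in coding sequence (78.7% identical). It was at 16.5, 14.9 and 15.9 CPM in mock 6 h, 11.1, 12.9 and 13.6 CPM in mock 12 h and 29.3, 20.0 and 15.2 CPM in mock 24 h. With AtCEP5 it was at 4.52, 5.23 and 3.76 CPM, 2.47, 2.89 and 3.45 CPM, and 4.84, 6.53 and 8.77 CPM. All AtCEP5 libraries lay below all mock libraries. XTH26, which like XTH14 is known from root hairs, was also lower at 6, 12 and 24 h (−1.60, −1.70 and −1.15; edgeR adjusted p of 0.00447, 0.00183 and 0.0174).

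XTH31, the most abundant of the family in each group after treatment, was higher than before treatment in both arms and lower with AtCEP5 than in mock at 6 h (−0.71 ± 0.17, edgeR adjusted p = 0.00905), 12 h (−0.62 ± 0.17, 0.0202) and 24 h (−0.95 ± 0.17, 0.00109). The summed level of all 33 genes was 962 to 1274 FPKM with AtCEP5 and 1376 to 1911 FPKM in mock, with no overlap, and 1072 to 1218 FPKM before treatment. The 10 genes alone summed to 555 to 645 FPKM before treatment, 411 to 641 FPKM in mock and 278 to 409 FPKM with AtCEP5.

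**Figure D5:**
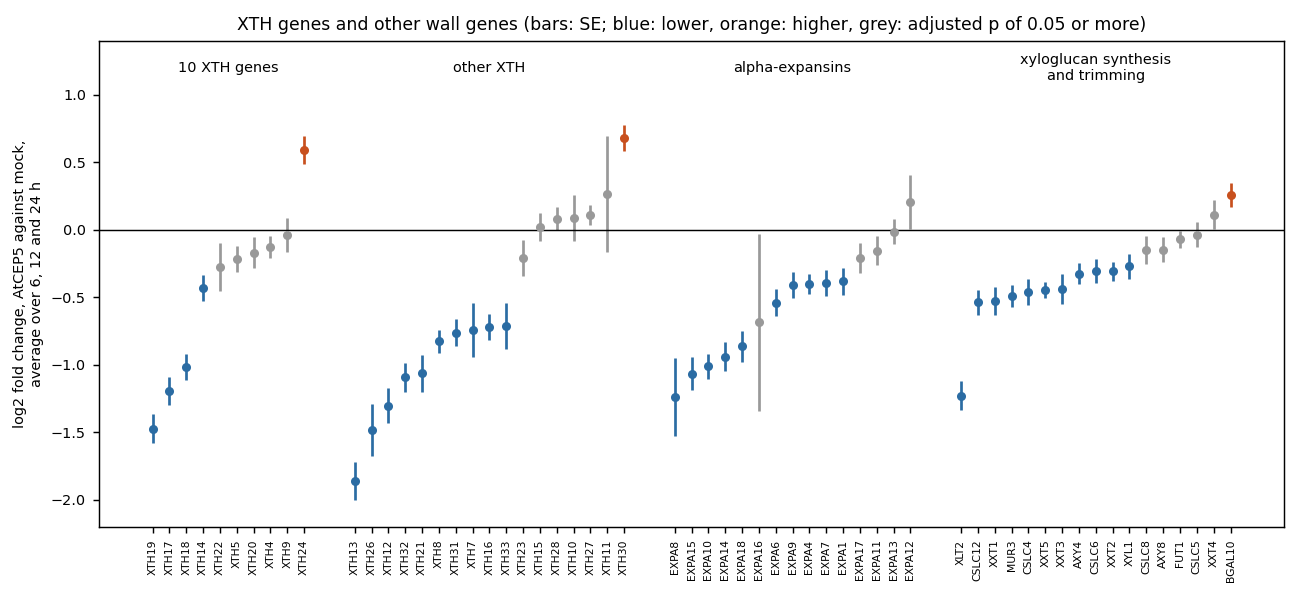
log2 fold change of AtCEP5 against mock, averaged over 6, 12 and 24 h (vertical axis, with standard errors), for the 10 XTH genes, the other XTH genes tested, the alpha-expansins and the genes of xyloglucan synthesis and trimming. Blue marks genes called lower, orange genes called higher and grey the rest. Each of the 4 lists has more blue than orange points.

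Expansins moved in the same direction. The table holds 23 alpha-expansin genes, of which 15 were tested and 10 were lower in the average over times, with a median log2 fold change of −0.41. None was higher in edgeR, nor at an unadjusted p under 0.05. The 4 with the smallest adjusted p were EXPA15 (−1.07), EXPA10 (−1.01), EXPA14 (−0.94) and EXPA18 (−0.86), and EXPA7 and EXPA18 are also among the root hair markers above. By time 8, 6 and 4 were lower at 6, 12 and 24 h, beside 5.33%, 5.41% and 4.12% of all genes tested, and 15.5% in the average. Leaving out each library in turn gave 5 to 8, 5 to 6 and 1 to 4 lower, with 10 to 11 in the average.

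Of 17 genes that make or trim xyloglucan 11 were lower in the average over times and 1, the galactosidase gene BGAL10, was higher (0.26), with a median of −0.31. The 4 with the smallest adjusted p were the galactosyltransferase genes XLT2 (−1.23) and MUR3 (−0.49), the glucan synthase gene CSLC12 (−0.54) and the xylosyltransferase gene XXT5 (−0.44). At 6, 12 and 24 h 3, 7 and 5 of the 17 were lower and 0 were higher, with 1, 0 and 1 higher at an unadjusted p under 0.05. Of all genes tested 5.33%, 5.41% and 4.12% were lower at these times and 5.94%, 6.71% and 3.7% higher. With each library left out in turn, 1 to 3, 4 to 8 and 2 to 5 were lower, and 10 to 11 in the average. BGAL10 lost its call in the average without AtCEP5 12 h replicate 3 or AtCEP5 24 h replicate 2. It also lost it without mock 6 h replicate 2, mock 12 h replicate 2 or mock 24 h replicate 1. In the average over times 15.5% of all genes tested were lower and 14.8% higher. The members of these lists are not independent of each other.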

How the data were processed

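Per the labels' protocols, root RNA was prepared with TRIzol and DNase, and mRNA libraries with the TruSeq RNA kit. The authors deposited counts per gene and FPKM values for the 21 libraries. STAR 2.7.8a, StringTie 2.1.3 and HTSeq are named in the submitters' processing notes, and the build and strand setting were not given in the sources used here. All 461492 deposited FPKM values above 0 were 10 times those recomputed from the counts, so they were divided by 10. Of the 32833 genes 32548 had a locus in TAIR10.1, 32532 of them with identical start and end, among these all 10 XTH genes.

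The deposited counts were tested with edgeR 4.0.16 (R 4.3.3), with TMM scaling, edgeR's filter on low counts (19938 genes left), 7 group means in 1 fit and 14 residual degrees of freedom. Benjamini-Hochberg adjustment ran over all 19938 genes, and calls were made at an adjusted p under 0.05. Averages over times and differences between times were contrasts of this fit. CPM are counts scaled with TMM factors, and errors of fold changes are standard errors (SE, n = 3 libraries a group). The script was tested on simulated data. Alternatives were DESeq2 1.42.0 and its size factors, no filter, at least 1 CPM in 3 libraries, a replicate block, only the compared groups, limma 3.58.1 on log2(FPKM + 0.1) and log2(FPKM + 1), 4 ribosomal RNA genes left out, and each library left out. For steps between times and for counts of other wall genes and root hair markers, leaving out each library was added after seeing the data.

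All 10 genes are named whatever their p, and of the other wall genes the 4 with the smallest adjusted p in the average over times of each list, plus each other XTH gene called there. XTH26 and XTH31 at single times and XTH13 and XTH31 by library were chosen after their values were seen. The 10 genes, the lists and the tests were chosen with earlier results of these data known. Coding sequences were aligned pairwise with Biopython 1.88.

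Replicate numbers are shared between groups in the labels, with nothing said of a shared batch. Over genes, residuals of same-numbered AtCEP5 and mock libraries correlated at 0.182, 0.117 and 0.241 at 6 h, each over the minimum of 0.1 set for a pairing. The values were 0.0301, −0.0495 and 0.0296 at 12 h and −0.194, 0.0919 and −0.14 at 24 h, which did not meet it. At 24 h some differently numbered libraries did. AtCEP5 replicate 3 and mock replicate 1 correlated at 0.354, AtCEP5 1 and mock 2 at 0.241, and AtCEP5 2 and mock 3 at 0.176. The remaining pairs at 24 h were AtCEP5 1 and mock 3 (5.18e-04), AtCEP5 2 and mock 1 (−0.226) and AtCEP5 3 and mock 2 (−0.29). A block for the replicate number does not model such pairs.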

Additional observations from a re-analysis of the deposited data

How the results depend on the processing

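In a fit with a block for the replicate number, 6, 4 and 3 of the 10 genes were called for AtCEP5 against mock at 6, 12 and 24 h and 5 in the average over times, the same counts as without the pairing, and the block changed no call of a single gene in any comparison. Over 162 recomputed counts of called genes in 10 comparisons, each stayed within 1.5 times the count reported. With each library left out in turn the count was 4 to 5 at 6 h, 4 at 12 h, 3 to 4 at 24 h and 5 to 6 in the average, so that at 6 h the 6 calls needed all libraries. Over the recomputed fold changes of single genes 1574 kept their side of the threshold, 32 lost their call, 14 gained one and 0 changed direction with a call. XTH5 passed in the average over times only without mock 6 h replicate 2, the library with 2.196% of ribosomal RNA counts (edgeR adjusted p = 0.0445). Against 0 h, calls were gained with limma on FPKM for XTH4 and XTH14 in mock 6 h, and for XTH9 in AtCEP5 6 h with limma and a pseudocount of 0.1, with no filter and with only the compared groups in the fit. XTH20 at 6 h lost its call with limma on FPKM (adjusted p of 0.0729 and 0.0673 with pseudocounts of 0.1 and 1). The causes were not tested. With 3 libraries a group, and standard errors of 0.14 to 0.32 in log2 for AtCEP5 against mock at 1 time, differences of the size seen for XTH4, XTH5 and XTH9 could not be told from 0.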
